A study of Mus musculus with 40 samples.

Results

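Bmi1, Commd3, Skida1, Mllt10 and Dnajc1 are 5 protein-coding genes that lie within 645955 bases of each other on mouse chromosome 2. They were followed by gene symbol in every count table of an RNA-sequencing study of the histone acetyltransferases KAT6A and KAT6B, and they make up 5 of the 26411 genes counted. The genes were chosen from results of these same libraries: Skida1 from the Kat6a-/- against wild-type (WT) embryos, Commd3 from the double point mutant against WT embryos, and the others for lying close by. For these 5 genes, every comparison that involves WT, Kat6a-/- or double point mutant embryos is therefore given as a description, with its standard error and without a test. Tests of the 5 genes were kept to contrasts among the other embryos and among LSK samples.

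The study compared loss of either protein with loss of its acetyltransferase activity alone. Whole embryos at embryonic day (E) 9.5 had 6 genotypes: WT, Kat6a cfd/cfd (a null allele, here Kat6a-/-), Kat6b dec/dec (a null allele, here Kat6b-/-), Kat6a G656E/G656E (here Kat6aE/E), Kat6b G577E/G577E (here Kat6bE/E), and both point mutations together (Kat6aE/E;Kat6bE/E, the double point mutant). The E14.5 fetal livers were WT, Kat6aE/E, Kat6bE/E or double point mutant, and lineage-negative, SCA1-positive, c-KIT-positive (LSK) cells, a fraction enriched for hematopoietic stem and progenitor cells, were sorted from them. Each of the 10 groups held 4 libraries, all animals were on a C57BL/6 background, the embryos were male and picked for similar external appearance, and both point mutations replace a glycine of the acetyl-CoA binding site by glutamic acid.

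BMI1 (also called PCGF4) is a core subunit of Polycomb repressive complex 1 (PRC1), which marks histone H2A with ubiquitin and keeps Hox genes and the Ink4a/Arf cell cycle inhibitors silent. It is known for its requirement in the self-renewal of hematopoietic stem cells. COMMD3 is a subunit of the Commander complex, which recycles membrane proteins from endosomes, and MLLT10 (AF10) is a cofactor of the histone H3 lysine methyltransferase DOT1L and a recurrent partner in leukemia fusions. DNAJC1 is a J-domain co-chaperone of the endoplasmic reticulum, and SKIDA1 carries a SKI/DACH domain and is little characterized.

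On the GRCm39 build Skida1 occupies chr2:18045487-18053862 on the reverse strand with 2 exons, and Mllt10 follows it 6121 bases away at chr2:18059984-18217205 on the forward strand with 23 exons. Dnajc1 (chr2:18200465-18397661, reverse strand, 12 exons) overlaps Mllt10 tail to tail, and the pair shares 749 exonic bases. Commd3 (chr2:18677221-18681045, forward strand, 8 exons) begins 279559 bases beyond Dnajc1, and the annotated span of Bmi1 (chr2:18681292-18691441, forward strand, 10 exons) starts only 246 bases after the end of Commd3. The library kit does not keep strand, so reads from the shared exonic bases of Mllt10 and Dnajc1 cannot be told apart by strand, and Commd3 likewise shares 549 exonic bases with an antisense non-coding transcript that is not a row of the count tables. Of 66-base tiles of the Bmi1 exons, 63.7% match another place in the genome at 95% identity or more (13.6% without any difference), mainly a processed copy on the X chromosome (X:149003723-149006443). For Mllt10 the share was 25.7% (5.4% without any difference), and for the other 3 genes it was 0. Levels of Bmi1 are therefore somewhat uncertain, and the X-linked copy, counted under its own name (Gm5946), stood at 3.06 to 6.12 CPM (counts scaled to library size, per 1000000) in embryos.

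**Figure D1:**
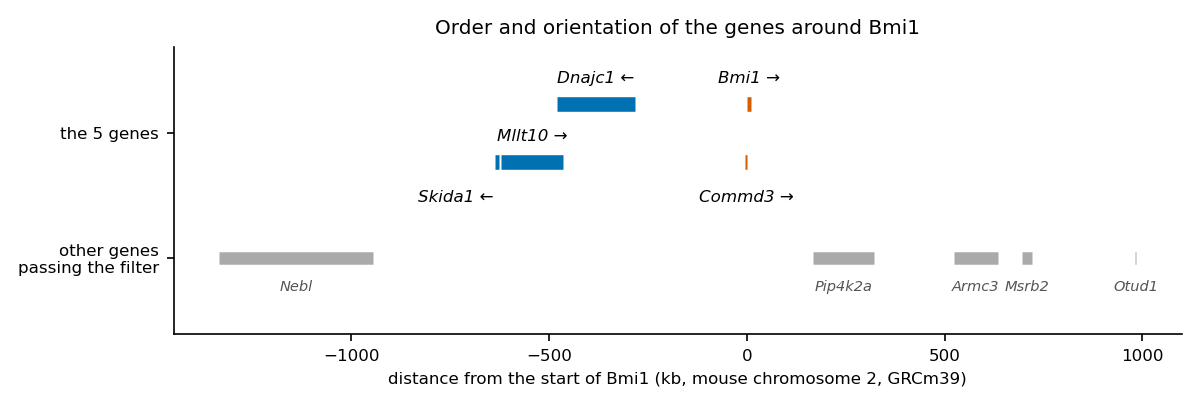
Map of the 5 genes (coloured) and the other nearby genes that passed the filter (grey) on mouse chromosome 2, drawn to scale. The x axis gives the distance in kilobases from the start of Bmi1, bars span each gene, and arrows give the direction of transcription. Skida1, Mllt10 and Dnajc1 form a left group, and Commd3 and Bmi1 sit side by side 279559 bases to its right.

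Because Commd3 and Bmi1 lie head to tail and their levels are compared throughout, sequence upstream of each start is shown, from RefSeq on the GRCm38.p6 build and in the direction of transcription. The canonical GENCODE transcripts start 25 bases (Commd3) and 190 bases (Bmi1) before the RefSeq starts, so for Bmi1 only the 60 bases ahead of the GENCODE start are given, and the last 25 of the 250 bases for Commd3 lie in its first GENCODE exon. The capitals mark CACGTG, the letters of an E-box, which was picked out after the sequences had been seen.
Commd3 (chr2:18672185-18672434): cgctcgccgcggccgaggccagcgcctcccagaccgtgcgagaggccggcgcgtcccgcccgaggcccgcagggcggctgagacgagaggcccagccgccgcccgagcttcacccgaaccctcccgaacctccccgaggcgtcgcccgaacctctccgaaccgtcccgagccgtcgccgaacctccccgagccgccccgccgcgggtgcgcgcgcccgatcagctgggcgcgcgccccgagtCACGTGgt
Bmi1 (chr2:18676768-18676827): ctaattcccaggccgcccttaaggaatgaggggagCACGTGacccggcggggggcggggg
CACGTG began 8 bases before the RefSeq start of Commd3 and 215 bases before that of Bmi1, which is 25 bases before the GENCODE start of Bmi1. The Commd3 match lies past the GENCODE start of that gene, within its first exon. The counts that follow are over the 300-base RefSeq windows. On either strand it was found in 7.2% of the 32851 RefSeq promoters of 300 bases. GGGCGG, the letters of a GC box, occurred 4 times at Commd3 and 6 times at Bmi1, and 35.7% of promoters held it. With 50 bases past the start included, the GC content was 76.0% for Commd3 (51 CpG) and 66.3% for Bmi1 (23 CpG), against a median of 52.7% and 7 CpG over all promoters. CCAAT (37.4% of promoters), TATAAA (13.6%), CCGGAAGT (3.9%), the NRF1 motif (4.6%) and TGACGTCA (1.8%) were searched as well and had no match in either window.

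Total counts per library ranged from 8401990 to 23339359 in embryos and from 12270376 to 59216547 in LSK cells, and all 5 genes passed the filter on low counts in both tissues. In LSK cells 4 libraries stood apart, with 12600 to 13683 genes detected against 16082 to 17647 in the other 12. They were replicates 2, 3 and 4 of the double point mutant, all from litter 1045, and replicate 2 of Kat6aE/E. Of the erythroid genes, Klf1, Hba-a1 and Hbb-bt summed to 3391 to 7905 CPM in these 4 libraries against 296.5 to 2830 in the other 12, without overlap. Their summed LSK markers lay at 1114 to 1413 CPM against 1191 to 2358. LSK results are therefore given with and without them, and the part of erythroid RNA in the results was not tested. Of 8 LSK markers all were above 1 CPM on average, with Ly6a, which encodes SCA1, the lowest of them. The null alleles lack only some of the exons, so whole-gene counts do not check those labels: Kat6b was higher, not lower, in Kat6b-/- embryos (54.5 ± 2.75 CPM, SD, n = 4) than in WT (40.5 ± 2.51, n = 4; log2 fold change 0.41, limma adjusted p = 0.00441), and Kat6a differed in no mutant from WT at an adjusted p below 0.05.

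In embryos, Bmi1 and Commd3 stood at similar levels once corrected for transcript length. As CPM per kilobase of counted exon (RPKM), the median over 24 embryos was 28.0 for Commd3, 24.2 for Bmi1, 13.2 for Skida1, 11.9 for Mllt10 and 5.66 for Dnajc1. Commd3 and Bmi1 overlapped in their ranges (21.0 to 37.1 and 20.9 to 30.8 RPKM), as did Skida1 and Mllt10 (7.30 to 17.9 and 10.8 to 14.2), whereas Dnajc1 lay below all of them (4.64 to 6.40).

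Commd3, the Commander subunit, was higher in the 3 genotypes with a changed Kat6a than in WT. It stood at 21.6, 22.5, 25.6 and 22.4 CPM in the 4 WT embryos. In Kat6aE/E it stood at 27.4, 30.5, 30.3 and 26.2 CPM, and in the double point mutant at 31.9, 29.2, 33.3 and 34.2. All of these lay above the highest WT embryo. Among Kat6a-/- embryos 3 did so (34.0, 32.4 and 33.2 CPM), while the embryo that shared a litter with a WT embryo reached 25.2 CPM against 21.6 in that littermate. The fitted log2 difference from WT was 0.44 (standard error, SE, 0.069) in the double point mutant, 0.33 (0.070) in Kat6a-/- and 0.30 (0.068) in Kat6aE/E. With Kat6a intact the values overlapped with those of WT: Kat6b-/- embryos had 26.0, 19.4, 22.0 and 22.1 CPM and Kat6bE/E embryos 23.9, 23.7, 19.7 and 22.8. Other cell type markers also stood apart from WT in some of these groups. Primitive erythroid genes (Hbb-y and Hba-x) summed to 3840 to 5040 CPM in Kat6aE/E against 2359 to 3723 in WT, and paraxial mesoderm genes (Meox1, Tcf15 and Pax1) to 92.4 to 116.4 in Kat6a-/- against 120.5 to 150.5 in WT, whereas both lists overlapped with WT in the double point mutant. Their part in the result was not tested.

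Bmi1, the PRC1 subunit, followed Commd3 in the point mutants but less so in Kat6a-/-. WT embryos had 95.1, 92.1, 96.2 and 90.2 CPM. Kat6aE/E embryos had 111, 118, 112 and 121 CPM, and double point mutants 123, 99.8, 124 and 112. Both sets lay wholly above WT. In Kat6a-/- the 4 embryos had 97.0, 88.2, 109 and 109 CPM, so that 1 of them fell below every WT embryo. The log2 difference from WT was 0.33 (SE 0.060) in the double point mutant, 0.30 (0.058) in Kat6aE/E and 0.11 (0.060) in Kat6a-/-. It was 0.00 in Kat6b-/- and -0.01 in Kat6bE/E, where the values (84.0 to 98.1 and 89.3 to 101 CPM) overlapped with those of WT.

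Skida1 ran in the opposite direction and was lower than WT in every mutant genotype. WT embryos had 78.0, 77.4, 73.8 and 87.5 CPM. Kat6a-/- embryos, the comparison that chose the gene, had 35.7, 58.2, 48.6 and 38.6 CPM. The highest of these lay well under the lowest WT embryo, and the log2 difference was -0.68 (SE 0.078). The double point mutant had 53.9, 62.8, 56.1 and 60.9 CPM (-0.35, SE 0.078). Kat6aE/E embryos had 66.8, 69.2, 59.95 and 72.5 CPM (-0.27, SE 0.072), and Kat6b-/- embryos 50.8, 68.7, 71.2 and 66.4 (-0.15, SE 0.076). All of these groups lay below WT without overlap, whereas the Kat6bE/E embryos (60.5, 77.1, 75.9 and 55.2 CPM; -0.23, SE 0.075) overlapped with it. Genes whose embryos did not overlap with WT made up 11.9% of all genes tested for Kat6a-/-, 7.31% for the double point mutant, 6.61% for Kat6b-/-, 4.94% for Kat6aE/E and 2.31% for Kat6bE/E.

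Markers of the neural tube varied with Skida1 from embryo to embryo, but only in Kat6a-/- did they lie wholly below WT. Sox2, Pax6 and Sox1, transcription factors of neural progenitors, summed to 288.3 to 330.1 CPM in WT embryos, 185.5 to 269.2 in Kat6a-/-, 192 to 292.6 in Kat6b-/-, 248.8 to 329.7 in Kat6aE/E, 256.4 to 326.9 in Kat6bE/E and 264.3 to 304.8 in the double point mutant. Over the 24 embryos their log2 sum and Skida1 had a Pearson r of 0.84, and 0.83 after subtraction of genotype means, and Sox2 was among the 3 genes most like Skida1 (r = 0.85, behind Mapk11 at 0.91 and Brsk2 at 0.86). As a ratio to that sum, Skida1 differed from WT by -0.37 on the log2 scale in Kat6a-/-, -0.33 in the double point mutant, -0.19 in Kat6bE/E, -0.17 in Kat6aE/E and -0.03 in Kat6b-/-. In bulk tissue fewer cells of a type and less RNA per cell cannot be told apart, and the part of neural tissue in the Skida1 difference was not tested.

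Mllt10 and Dnajc1, the genes between Skida1 and Commd3, differed from WT by at most 0.20 on the log2 scale. Over all 24 embryos Mllt10 ranged from 82.7 to 109 CPM and Dnajc1 from 39.6 to 54.7. Their differences were 0.15 (SE 0.0465) and 0.20 (SE 0.0657) in Kat6a-/-, both larger than that of Bmi1 there (0.11, SE 0.0603). In the double point mutant they were 0.08 (SE 0.0473) and 0.18 (SE 0.0664), and in Kat6aE/E 0.01 (SE 0.0452) and 0.07 (SE 0.0637). In Kat6b-/- they were 0.02 (SE 0.047) and 0.02 (SE 0.067), and in Kat6bE/E 0.03 (SE 0.0465) and -0.04 (SE 0.0667). No mutant group of either gene stood apart from the WT group.

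**Figure D2:**
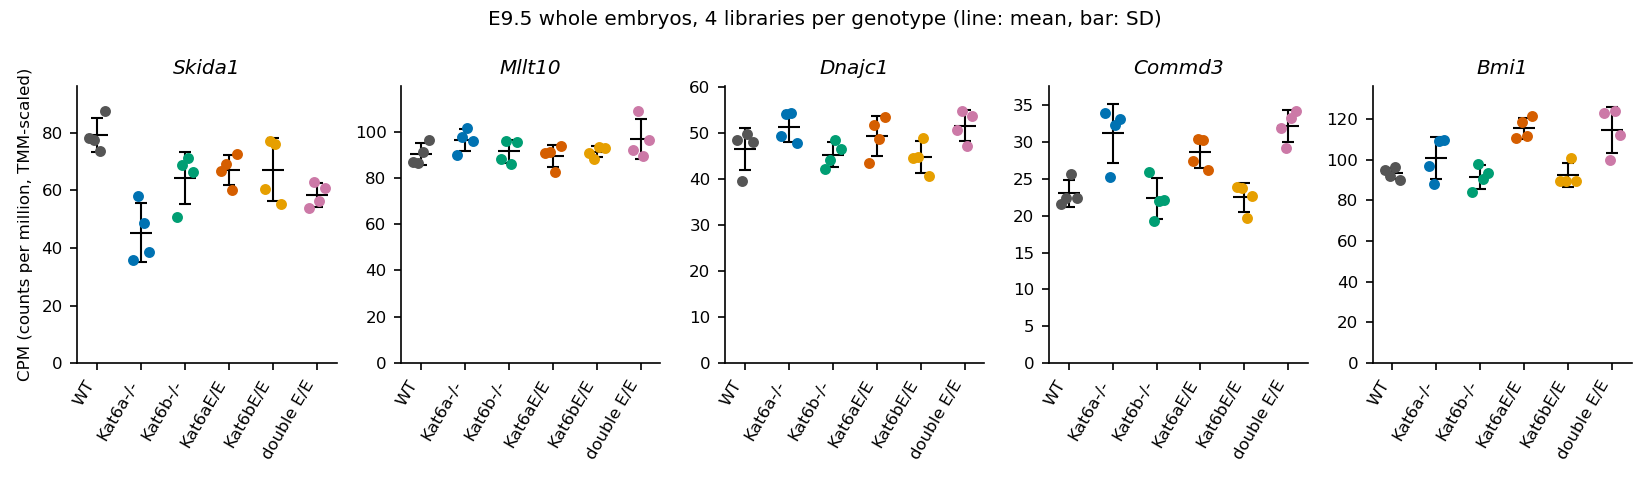
Level of each gene in the 24 whole E9.5 embryos by genotype, in TMM-scaled CPM on axes that start at 0. Each point is 1 library, the horizontal line is the mean of 4 and the bar is the SD. Skida1 is highest in WT (73.8 to 87.5 CPM), Commd3 and Bmi1 are higher in Kat6aE/E and double point mutants than in WT, and Mllt10 and Dnajc1 overlap in all groups.

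For scale, the share of all 14183 genes tested that passed an adjusted p of 0.05 against WT was 2.64% in Kat6a-/-, 2.91% in the double point mutant, 0.508% in Kat6b-/-, 0.275% in Kat6aE/E and 0% in Kat6bE/E. In the last of these, 626 genes had an unadjusted p below 0.05 with limma, and edgeR's quasi-likelihood test and DESeq2 also called 0. Nothing is read from these shares about the 5 genes, which were chosen in part for those differences. WT embryos shared a litter with mutants only in 3 litters. Within them, Commd3 was higher than in the WT littermate by 0.22 on the log2 scale in Kat6a-/- and by 0.28 in Kat6aE/E, and in the Kat6b-/- embryo it was lower (-0.40). Skida1 was below the WT littermate in all 3 pairs (-0.42, -0.21 and -0.10), and Bmi1 was above it in Kat6aE/E (0.27) but not in Kat6a-/- (-0.11). The Kat6bE/E and double point mutant embryos shared no litter with WT, so there the litter and the genotype cannot be told apart.

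The tested contrasts set Kat6aE/E against the 2 Kat6b mutants. No litter was shared between Kat6aE/E, Kat6b-/- and Kat6bE/E embryos, so litter and genotype cannot be told apart in these contrasts. Their error and surrogate variables (estimated factors of unwanted variation) came from the fit of all 24 embryos, so they are not independent of the comparisons that chose the genes. Against Kat6b-/-, both neighbours were higher in Kat6aE/E in 4 of 4 embryos: Commd3 by 0.43 (SE 0.075, limma adjusted p = 0.0117) and Bmi1 by 0.30 (SE 0.064, adjusted p = 0.0499). Only 0.176% of all genes passed in that comparison, and 6.27% did not overlap between the groups. Skida1 did not differ detectably (-0.12, adjusted p = 0.666), nor did Mllt10 (-0.01) or Dnajc1 (0.06). These calls depend on the model: in a fit of those 2 genotypes alone the limma adjusted p was 0.168 for Commd3 and 0.146 for Bmi1, and without surrogate variables it was 0.166 for each.

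Against Kat6bE/E the differences were alike in size, 0.36 for Commd3 (SE 0.072) and 0.30 for Bmi1 (SE 0.061), and again no Kat6aE/E embryo overlapped with the other group, as for 2.3% of all genes. Neither passed after adjustment (limma adjusted p = 0.178 for each, unadjusted 3.76e-05 and 3.21e-05). In this comparison 0% of genes passed with limma, with 700 at an unadjusted p below 0.05, and edgeR's quasi-likelihood test and DESeq2 called 0 as well. Skida1 was nearly level (-0.05). Between Kat6bE/E and Kat6b-/- none of the 5 genes differed detectably (limma adjusted p of 0.832 or more), with 0.0353% of all genes called.

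**Figure D3:**
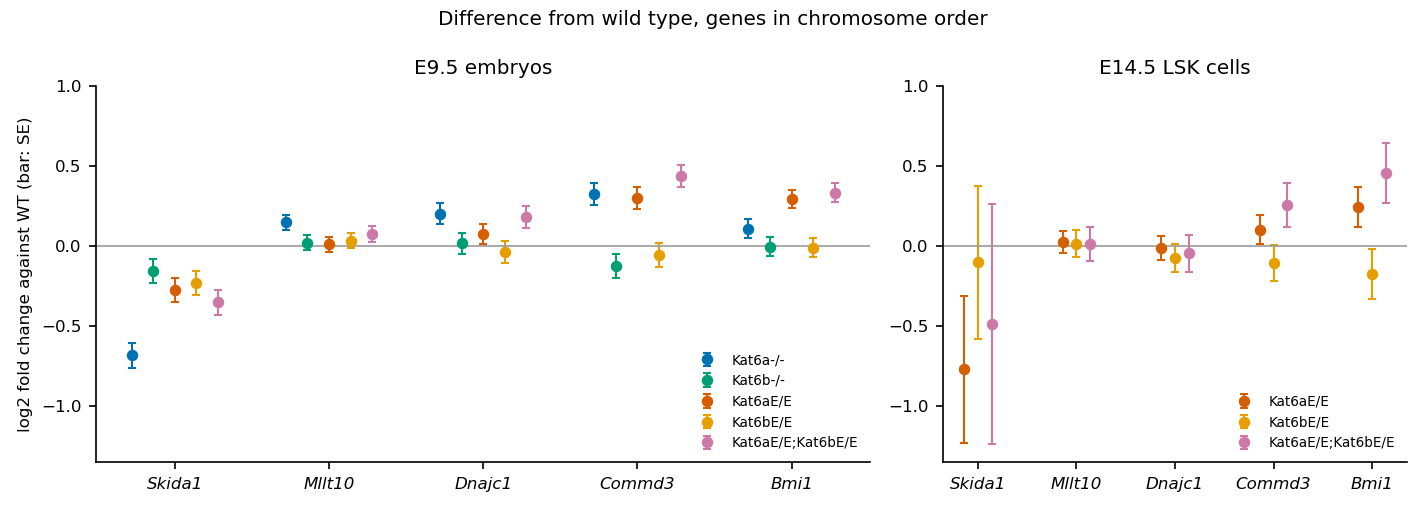
Log2 differences of the 5 genes in every mutant against WT, in embryos and LSK cells. Points are values fitted by limma and bars are the SE, and the line at 0 is the WT level. In embryos Commd3 and Bmi1 lie above 0 and Skida1 below it in Kat6aE/E, Kat6a-/- and the double point mutant, by up to 0.44 for Commd3 and -0.68 for Skida1. The embryo values are a description, and in LSK cells no difference from WT passed an adjusted p of 0.05.

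Direction was also compared inside each library, as the log2 ratio of 2 genes, which does not depend on library scaling. From WT to mutant embryos the mean of Commd3 over Skida1 rose from -1.78 (SD 0.186) to -0.52 (SD 0.504) in Kat6a-/-, -0.86 (SD 0.165) in the double point mutant and -1.23 (SD 0.201) in Kat6aE/E. In those 3 genotypes every embryo lay above every WT embryo. Bmi1 over Skida1 went from 0.24 (SD 0.143) in WT to 1.18 (SD 0.411), 0.97 (SD 0.241) and 0.79 (SD 0.076), likewise without overlap. Skida1 was chosen from Kat6a-/- against WT and Commd3 from the double point mutant against WT. The separation of those genotypes from WT was therefore partly fixed by that choice, and these values are a description. The means of Kat6b-/- and Kat6bE/E differed the same way by less, at -1.51 and -1.56 for Commd3 over Skida1 and 0.52 and 0.47 for Bmi1 over Skida1. Both genotypes overlapped with WT in both ratios. Against its WT littermate, the Kat6b-/- embryo of litter 3482 was lower in Commd3 over Skida1 (-1.82 against -1.52). It was higher in Bmi1 over Skida1 (0.513 against 0.382).

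Among the tested pairs of genotypes, Bmi1 over Skida1 was higher in Kat6aE/E than in Kat6b-/- by 0.27 and than in Kat6bE/E by 0.32, in 4 of 4 embryos each time. The two-sided exact permutation p was 0.0286 for both, the smallest that 4 against 4 allows, and 0.386 after adjustment over the 27 ratio tests made. The permutation ignored litter and treated littermates as independent, although the 4 Kat6aE/E embryos came from 3 litters, as did the 4 Kat6bE/E embryos. For Commd3 over Skida1 the differences were 0.29 (exact p = 0.229, adjusted 0.515) and 0.34 (exact p = 0.171, adjusted 0.462). No ratio test passed after adjustment. Commd3 over Bmi1 had a mean of -2.02 (SD 0.093) in WT and -2.01 (SD 0.14) in Kat6aE/E, where both genes were higher, and of -1.70 (SD 0.128) in Kat6a-/- and -1.83 (SD 0.107) in the double point mutant.

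**Figure D4:**
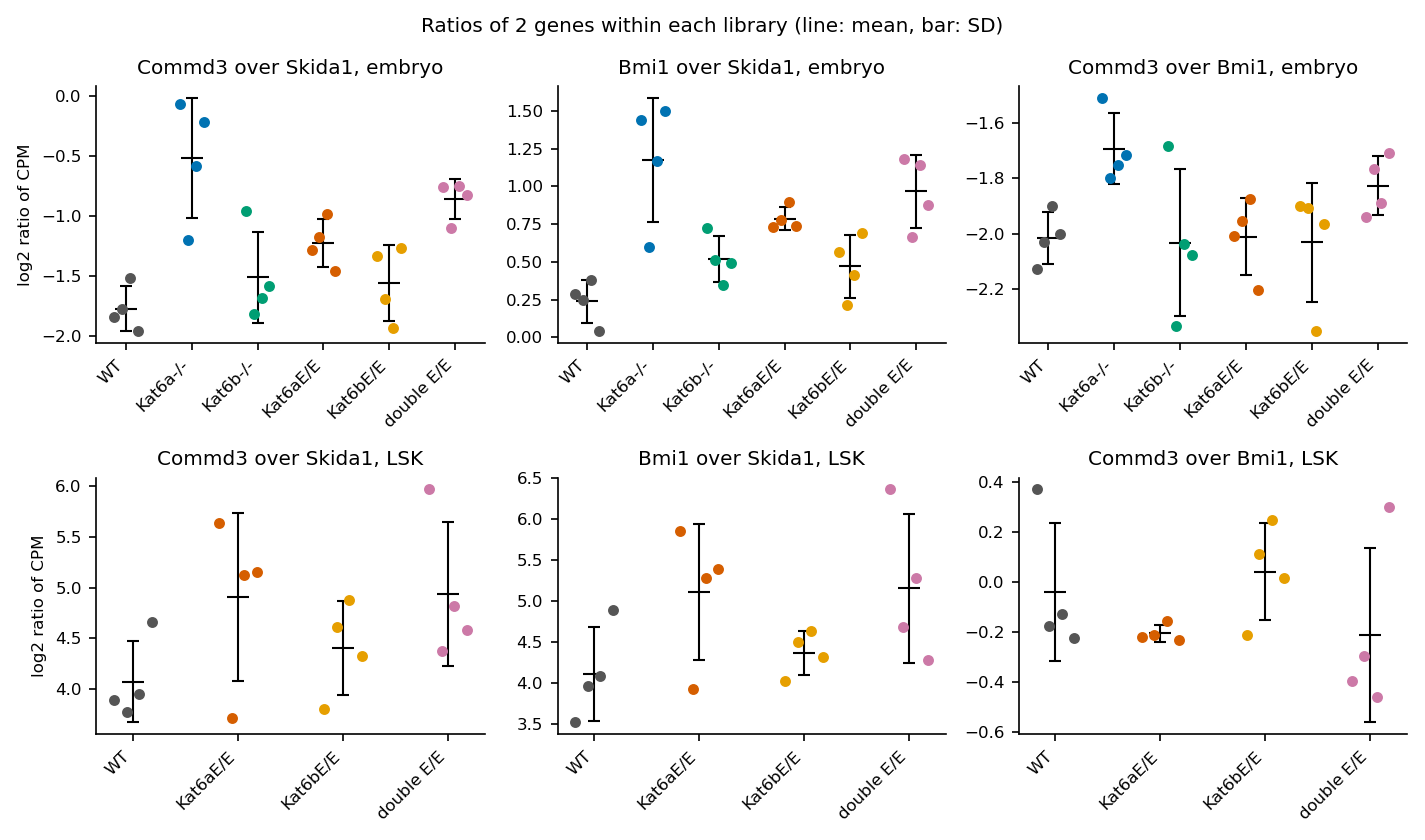
Log2 ratios of Commd3 over Skida1, Bmi1 over Skida1 and Commd3 over Bmi1 (columns) in each library, by genotype, in E9.5 embryos (top) and LSK cells (bottom), with a y axis of its own in each panel. Each point is 1 library, the lines are means of 4, the bars are the SD, and double E/E is the double point mutant. In embryos both ratios over Skida1 are lowest in WT (means -1.78 and 0.24) and highest in Kat6a-/- (-0.52 and 1.18), and in LSK cells every mutant group overlaps with WT.

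In LSK cells Skida1 was nearly absent, and Commd3 was the most abundant of the 5 genes per length. The median RPKM over 16 libraries was 69.2 for Commd3, 17.4 for Bmi1, 15.2 for Mllt10, 5.62 for Dnajc1 and 0.513 for Skida1. Bmi1 and Mllt10 overlapped (11.6 to 23.1 and 12.6 to 18.2 RPKM), while the other neighbours in this order did not. From WT embryos, which had also served to choose the genes, to WT LSK cells the fitted log2 difference was -4.85 for Skida1 (SE 0.236), 1.35 for Commd3 (SE 0.123), 0.35 for Mllt10 (SE 0.086), -0.57 for Bmi1 (SE 0.147) and 0.04 for Dnajc1 (SE 0.092). These values are a description. Of 14462 genes, 77.9% passed an adjusted p of 0.05 in this comparison, and stage and cell type changed together with the RNA input and extraction kit that the labels give.

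Bmi1 in LSK cells was lowest in Kat6bE/E and highest in the double point mutant. WT libraries had 50.4, 67.8, 73.9 and 62.4 CPM, and Kat6bE/E libraries 67.1, 46.8, 50.0 and 55.6. Kat6aE/E libraries had 70.4, 72.9, 72.3 and 86.8 CPM. The double point mutant had 91.4, 89.2, 93.0 and 69.6 CPM. Kat6aE/E and double point mutant libraries all lay above the Kat6bE/E ones, and both overlapped with WT. Kat6aE/E shared no litter with Kat6bE/E, and neither Kat6bE/E nor the double point mutant shared one with WT. The double point mutant shared only litter 970 with Kat6bE/E, and its replicates 2, 3 and 4 all came from litter 1045. Litter and genotype therefore cannot be fully told apart in the LSK contrasts. Against WT the log2 difference was 0.46 (SE 0.188) in the double point mutant and 0.24 (SE 0.125) in Kat6aE/E, neither of which passed (limma adjusted p = 0.656 and 0.462). The double point mutant exceeded Kat6bE/E by 0.63 (SE 0.163, limma unadjusted p = 0.00194, adjusted p = 0.0641), and Kat6aE/E exceeded it by 0.42 (limma adjusted p = 0.169). Bmi1 between the double point mutant and Kat6bE/E passed in 4 of 13 alternative fits (adjusted p from 0.00181 to 0.731) and, among fits with a library left out, only without replicate 1 of the double point mutant (0.62, adjusted p = 0.024). That last fit called 2929 genes in this comparison, against 193 with all libraries. The X-linked copy Gm5946 was also higher in the double point mutant, at 3.49 to 11.1 CPM against 1.68 to 3.11 in WT. In Kat6bE/E (1.94 to 2.45 CPM) and Kat6aE/E (2.21 to 3.39 CPM) Gm5946 overlapped with WT. Its part in the Bmi1 values was not tested.

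Commd3 in LSK cells kept the same order of genotypes. Its values were 65.2, 59.9, 67.6 and 53.4 CPM in WT, 57.9, 50.6, 59.5 and 56.2 in Kat6bE/E, 60.4, 63.0, 64.8 and 73.8 in Kat6aE/E, and 69.5, 72.5, 67.5 and 85.9 in the double point mutant. The double point mutant and Kat6aE/E again lay wholly above Kat6bE/E, with the same limit from litters as for Bmi1. The double point mutant differed from Kat6bE/E by 0.36 (limma adjusted p = 0.105, and 0.023 to 0.811 over 13 alternative fits, of which 2 passed) and from WT by 0.26 (adjusted p = 0.743), and Kat6aE/E from WT by 0.10 (adjusted p = 0.722). Of all genes, 4.97% did not overlap between the double point mutant and Kat6bE/E and 9.94% between Kat6aE/E and Kat6bE/E, and 1.48% and 2.07% passed an adjusted p of 0.05.

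Skida1 in LSK cells rested on 19 to 116 counts per library. WT libraries had 4.32, 4.28, 4.27 and 2.02 CPM, Kat6aE/E libraries 1.13, 4.72, 1.78 and 1.99, Kat6bE/E libraries 4.06, 1.99, 1.94 and 2.71, and double point mutants 1.03, 3.4, 2.30 and 3.49. All groups overlapped. The log2 difference from WT was -0.77 in Kat6aE/E (SE 0.458, limma adjusted p = 0.549) and -0.48 in the double point mutant (adjusted p = 0.927). The Kat6aE/E value turned on replicate 2, the library with few genes detected and the highest Skida1 level: without it the difference was -1.32 (SE 0.289, limma adjusted p = 0.0295). Without Kat6aE/E replicate 1, the library with the lowest level of that group, it was -0.22 (adjusted p = 0.983), and without WT replicate 4 it was -1.39 (adjusted p = 0.0792). In the main fit Mllt10 (96.9 to 140.2 CPM) and Dnajc1 (28.4 to 53.1 CPM) differed by at most 0.07 on the log2 scale between any mutant and WT. Over 13 alternative fits the double point mutant differed from WT by -0.308 to 0.058 in Dnajc1 and by 0.019 to 0.113 in Mllt10, with 0 calls. Dnajc1 in the double point mutant was lower than in WT without replicate 1 of that group (-0.34, limma adjusted p = 0.0444), against -0.05 with it. That fit called 2170 genes against WT, where 0 were called with all libraries. The double point mutant libraries left in it were those with few genes detected.

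Without the 4 libraries with few genes detected, 3 Kat6aE/E libraries and a single double point mutant remained, the latter assumed to vary like the other groups. Bmi1 changed little, with 0.24 in Kat6aE/E and 0.47 in the double point mutant against WT (SE 0.127 and 0.174, limma adjusted p = 0.573 and 0.33) and 0.61 between the double point mutant and Kat6bE/E (adjusted p = 0.0777). Commd3 stood at 0.08, 0.17 and 0.22 in the same 3 comparisons (limma adjusted p = 0.801, 0.507 and 0.189), so that its difference between the double point mutant and Kat6bE/E was smaller than with all libraries. Skida1 was lower than in WT by 1.29 on the log2 scale in Kat6aE/E (adjusted p = 0.0237), and at -1.90 in the double point mutant (adjusted p = 0.141). Conversely, without replicate 1 of the double point mutant, the only one outside litter 1045, 3 libraries of that litter remained, and Commd3 (0.43, limma adjusted p = 0.0169) was higher than in WT, with Bmi1 at 0.50 (adjusted p = 0.0926), while the number of genes called against WT went from 0 to 2170. Litter and genotype cannot be told apart there.

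The share of genes called was 1.36% between Kat6aE/E and WT, and 0% for Kat6bE/E and for the double point mutant against WT. Unadjusted, 364 and 896 genes were below 0.05 there with limma. DESeq2 called 0 and 262, and edgeR's quasi-likelihood test without surrogate variables 0 and 39. No gene of the 5 showed a detectable departure of the double point mutant from the sum of the single mutants (limma adjusted p of 0.891 for Bmi1 and Commd3 and 0.962 for Skida1). The fitted departures were 0.38 (SE 0.209) for Bmi1, 0.26 (SE 0.151) for Commd3 and 0.39 (SE 0.856) for Skida1. With SEs of this size the test could not show that the effects of the single mutants add up. Within a litter, the Kat6aE/E library fell below its 3 WT littermates in Skida1 (-1.85) and lay near them in Commd3 (-0.09) and Bmi1 (0.16). The double point mutant that shared a litter with a Kat6bE/E fetus differed from it by 0.45 in Bmi1, 0.26 in Commd3 and -1.90 in Skida1.

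**Figure D5:**
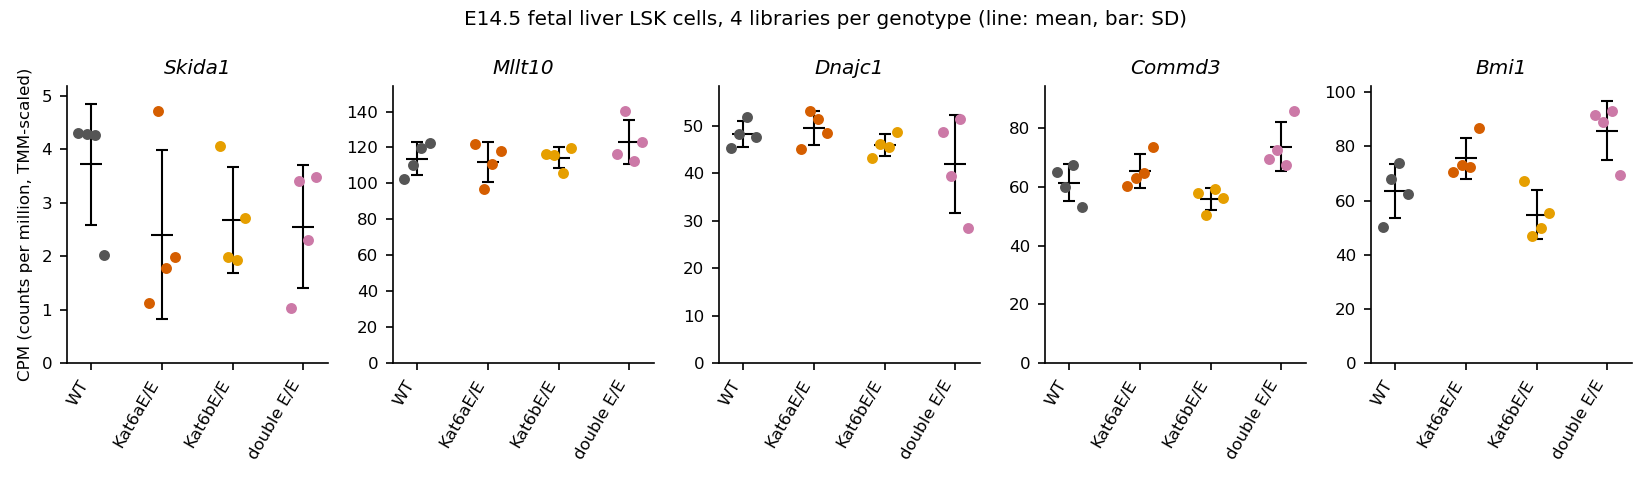
Level of each gene in the 16 E14.5 fetal liver LSK libraries by genotype, in TMM-scaled CPM on axes that start at 0. Each point is 1 library, the line is the mean of 4 and the bar is the SD. Commd3 and Bmi1 are lowest in Kat6bE/E (means 56.0 and 54.9 CPM) and highest in the double point mutant (73.9 and 85.8), and Skida1 stays below 5 CPM throughout.

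Over the 24 embryos the log2 levels of Commd3 and Bmi1 had a Pearson r of 0.64, and those of Commd3 and Skida1 an r of -0.67. After subtraction of each genotype's mean the first was 0.07 and the second -0.69, so that in embryos Commd3 and Skida1 ran against each other within genotypes too. In LSK cells (16 libraries) Commd3 and Bmi1 had an r of 0.62, and -0.01 within genotypes, while Commd3 and Skida1 had an r of 0.12, and 0.45 within genotypes, the opposite sign to embryos. The embryos share tissue composition and library depth as well as genotype, and these values are a description. The embryo genes most like Commd3 were Fgd2 (r = 0.81), Cdkn2c (0.81) and Arap1 (0.80), and those most like Bmi1 were D17H6S56E-5 (0.74), Prxl2a (0.72) and Ckap2 (0.71). In LSK cells they were Mtmr2 (0.90), Serpinb6b (0.87) and Zfp874a (0.87) for Commd3 and BC005537 (0.91), Bcap29 (0.90) and Pclaf (0.90) for Bmi1. For the sparse Skida1 the highest LSK value was 0.77 (Unc45b).

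The other genes of the stretch did not change detectably. Of 19 other counted genes within 1000000 bases, 4 passed the filter in embryos (Nebl, Pip4k2a, Msrb2 and Otud1) and 5 in LSK cells (with Armc3), and limma called 0 of them in any comparison with WT or among the tested mutant pairs, with a median difference from WT of 0.04 to 0.17 in embryos. At an unadjusted p below 0.05 there was 1, in Kat6bE/E against Kat6b-/- embryos, and edgeR's quasi-likelihood test without surrogate variables called 0. The non-coding transcript A930004D18Rik, which ends 2939 bases from Skida1, was fitted with all gene types. It differed from WT by -0.39 in Kat6a-/- embryos (SE 0.125, limma adjusted p = 0.0853), the same direction as Skida1. Unlike Skida1, it stayed near WT in the other mutants: -0.05 in Kat6b-/-, -0.01 in Kat6aE/E, 0.06 in Kat6bE/E and 0.02 in the double point mutant.

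Partner genes were described from lists of each member's complex. PRC1, the complex of BMI1, had 23 other genes measured, and 0 passed against WT in embryos (limma, with 3 higher and 3 lower at an unadjusted p below 0.05 in the double point mutant). In LSK cells Pcgf2, a paralog of Bmi1 that takes its place in PRC1, was lower in Kat6aE/E than in WT by 0.68 on the log2 scale (SE 0.147, limma adjusted p = 0.03), at 5.65 to 10.9 CPM against a WT mean of 13.2 (SD 1.4, n = 4). In the double point mutant it was at -0.63 (adjusted p = 0.567) and in Kat6bE/E at -0.15, and in embryos it differed from WT by at most 0.13 in any mutant (adjusted p of 0.233 or more). Bcorl1, a PRC1.1 corepressor, was lower in the double point mutant than in Kat6bE/E (-0.60, adjusted p = 0.0444). Cdkn2a, the Ink4a/Arf gene that PRC1 represses, held 0 to 7 counts per embryo and 0 to 2 per LSK library, and neither of the 2 genes of that locus passed the filter. PRC2 had 0 of 13 called in any comparison (at most 4 at an unadjusted p below 0.05), and Commander had 0 of 15 (at most 2). In Kat6a-/- embryos the median log2 difference from WT was -0.02 for PRC1, 0.02 for PRC2 and -0.0026 for Commander, against -0.0025 for all genes tested.

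The list of DOT1L and AF10 partners (10 genes) held 1 gene lower in the double point mutant than in WT embryos, the elongation factor Mllt1 (-0.21, limma adjusted p = 0.01). Aff3, a scaffold of the super elongation complex, was higher than in Kat6bE/E in LSK cells of the double point mutant (0.66, adjusted p = 0.0256) and of Kat6aE/E (0.47, adjusted p = 0.0499). Among 8 genes for other J proteins of the endoplasmic reticulum and their partner Hspa5, Dnajb9, a co-chaperone, was higher than WT in Kat6b-/- (0.45, adjusted p = 0.0232), Kat6a-/- (0.35, adjusted p = 0.0395) and double point mutant embryos (0.50, adjusted p = 0.00498), and Dnajc3 in Kat6b-/- (0.27, adjusted p = 0.0316) and the double point mutant (0.21, adjusted p = 0.0415). Of the SKI and DACH family, 4 of 6 genes passed the filter, and Dach1 was lower in LSK cells of Kat6aE/E than of WT (-1.15, adjusted p = 0.03) and of the double point mutant than of Kat6bE/E (-1.83, adjusted p = 0.0401). Without surrogate variables 0 of the calls in this and the preceding paragraph held, with limma or with edgeR's quasi-likelihood test.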

How the data were processed

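RNA was sequenced from 24 whole E9.5 embryos and 16 E14.5 LSK samples with an unstranded TruSeq v2 kit. The deposited values are raw counts of read pairs per gene: the authors aligned reads to mm39 with Rsubread and counted them over RefSeq genes with featureCounts. Following the study's model, protein-coding genes off the Y chromosome (by gene type in RefSeq GRCm38.p6, 26359 of 26411 genes matched) were filtered with filterByExpr and scaled by TMM. The fit held 4 surrogate variables, and litter entered as a random effect (correlation 0.107 in embryos and 0.331 in LSK cells) by voomLmFit and robust eBayes (edgeR 4.0.16, limma 3.58.1, R 4.3.3). Adjusted p-values are Benjamini-Hochberg over all 14183 embryo or 13071 LSK genes, with a threshold of 0.05. WT embryos and LSK cells were compared in a separate fit with a litter block (correlation 0.424) and no surrogate variables.

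CPM is TMM-scaled, RPKM divides by the length of the counted exons, and ratios used log2 CPM with a prior count of 2. The 5 genes and all lists (PRC1, PRC2, DOT1L and AF10 partners, Commander, J proteins of the endoplasmic reticulum, SKI and DACH family, Ink4a/Arf, and genes within 1000000 bases) were chosen with earlier results of these data known. The E9.5 tests of the 5 genes share their fit and libraries with the comparisons that chose the genes and are not independent of them. The genes named are the 5 members, Kat6a and Kat6b, the tested genes within 1000000 bases, up to 3 called genes of each list, Pcgf2 and Cdkn2a, and the 3 genes of highest correlation with Bmi1, Commd3 and Skida1. A930004D18Rik was named after its values were seen. The p-values measure the spread between samples labelled as replicates, of which some share a litter. Positions come from GENCODE on GRCm39, and promoters from RefSeq. Skida1 had no entry in the promoter table. 1 gene of a marker list is not reported here. The scripts were tested on simulated data, and the limit on recovered genes for the LSK design was lowered after it was missed. Alternatives were other numbers of surrogate variables, no litter block, a replicate block, other scaling and filters, edgeR's quasi-likelihood test, DESeq2 1.42.0, fits of only the genotypes compared and each library left out. The fit without LSK libraries under 14000 detected genes was chosen after seeing the data.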

Additional observations from a re-analysis of the deposited data

Results flagged for a closer look

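Among 50 groups of 4 libraries, 4 held a library far from the other 3, and chance gives about 1 in 20 groups. Skida1 in LSK WT replicate 4 stood at 2.02 CPM against 4.27 to 4.32 in the others. Bmi1 in E9.5 Kat6bE/E replicate 3 was at 101 CPM against 89.3 to 89.5. In LSK cells Bmi1 was at 86.8 CPM in Kat6aE/E replicate 4 against 70.4 to 72.9, and at 69.6 CPM in replicate 4 of the double point mutant against 89.2 to 93.0.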

How the results depend on the processing

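Alternatives gave 1967 values for fold changes, ratios and list counts. List counts have no direction, and no ratio passed after adjustment. Among the tested contrasts of the 5 genes, only Commd3 and Bmi1 in Kat6aE/E against Kat6b-/- embryos passed in the main fit. Both differences stayed positive in every alternative. The higher Commd3 in Kat6aE/E than Kat6b-/- embryos was no longer called without surrogate variables (0.406, limma adjusted p = 0.166), with edgeR's quasi-likelihood test without them (0.368, adjusted p = 0.129) or with only the 2 genotypes fitted (0.396, adjusted p = 0.168). It lay between 0.375 and 0.475 with each library left out, and was lost without Kat6b-/- replicate 2 (adjusted p = 0.0574). The Bmi1 call in the same comparison was lost in those fits (0.329, 0.332 and 0.33; adjusted p = 0.166, 0.0793 and 0.146), with DESeq2 size factors (0.301, limma adjusted p = 0.0638), and without Kat6b-/- replicate 3 or Kat6aE/E replicate 3 or 4 (range over all libraries left out 0.266 to 0.322, largest limma adjusted p = 0.0842). Bmi1 between Kat6aE/E and Kat6bE/E passed with 6 surrogate variables (0.301, limma adjusted p = 0.00776) and without the filter (0.307, adjusted p = 0.042), with 0.277 to 0.354 over libraries left out.

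The small Skida1 differences between Kat6aE/E and Kat6b-/- turned positive without surrogate variables (limma 0.039, edgeR 0.053, DESeq2 0.059) and with only those genotypes (0.043). Against Kat6bE/E they were 0.036, 0 (edgeR) and 0.034 (only those genotypes), and -0.088 to 0.033 over libraries left out, with 0.033 without Kat6bE/E replicate 2. Skida1 in the double point mutant against WT was -0.456 with 2 surrogate variables. In LSK cells Skida1 in Kat6aE/E was called with 6 surrogate variables (-1.31, limma adjusted p = 0.0081) and without the libraries with few genes detected (-1.286), and ranged from -1.391 to -0.223 over libraries left out. Commd3 in the double point mutant against WT ranged from 0.122 to 0.426. The cause was not tested.

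Same-numbered samples showed little shared deviation (60 embryo pairs with r from -0.233 to 0.311, and 24 LSK pairs from -0.427 to 0.353). The median r was 0.048 in embryos and 0.004 in LSK cells, against -0.018 and -0.025 for samples of different number. Among the embryo pairs 17 lay over 0.1, so samples were not treated as paired in the main fit, but pairing was not excluded. With a replicate block Bmi1 in Kat6aE/E against Kat6b-/- was 0.288 (limma adjusted p = 0.0601), and 73 genes were called there against 25. Numbers of genes called moved with the surrogate variables and with single libraries. Without surrogate variables they went from 375 to 111 in Kat6a-/-, 72 to 0 in Kat6b-/-, 39 to 14 in Kat6aE/E and 413 to 0 in double point mutant embryos against WT, and in LSK cells from 178 to 3 in Kat6aE/E against WT. With 6 they were 631, 169, 122 and 811 in embryos. With DESeq2 and no surrogate variables they were 355, 16, 24 and 213. In LSK cells, leaving out replicate 1 of the double point mutant moved them from 0 to 2170 against WT and from 193 to 2929 against Kat6bE/E, and leaving out Kat6aE/E replicate 1 from 178 to 1 in Kat6aE/E against WT. In LSK cells the libraries with at least 14000 genes gave 303, 61 and 96 calls against WT in Kat6aE/E, Kat6bE/E and the double point mutant. Depth limits Skida1 in LSK cells, at 19 to 116 counts.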
